A study of Homo sapiens with 2 samples.

Results

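The peaks described here are the SOX4 peaks that lie beside the centromeres of LN229 cells, an established human glioblastoma line. A peak was counted when its midpoint fell inside a 3 Mb centromere gap of the genome build hg19 or at most 2 Mb outside it, at any score, on 19 chromosomes: 1 to 8, 10 to 19 and 22. Chromosomes 9, 20, 21, X and Y were left out. Of the 4201 peaks in the list, 1047 met this rule (24.9%, exact Clopper-Pearson 95% interval 23.6 to 26.3%), and 0 of them fell inside a gap. The rule reads position only and no width or score, though it was drawn up with earlier results of these data known.

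The study set 2 chromatin immunoprecipitation libraries side by side. In 1 library the LN229 cells had been transfected with a Flag-SOX4-HA plasmid, and in the other, the negative control, with a GFP-Flag-HA plasmid. Both were precipitated with an anti-Flag antibody, which targets the tag and not SOX4 itself. The sample labels call the cells glioblastoma, as does the title, while the design text calls them prostate cells. Each group had 1 library, and only the peak list of the SOX4 library was analysed here. No value below therefore has a replicate error, no test between SOX4 and GFP was possible, and the read depth behind a peak is unknown. Intervals cover counting error in 1 library only and take each peak as independent of its neighbours, which need not hold. Whether the GFP library carried signal at the same places was not tested.

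SOX4 is a transcription factor of the SOX family, which binds short DNA motifs through an HMG box. A human centromere is built on long arrays of alpha satellite, a tandem repeat, and in hg19 most of each array is a placeholder of fixed length with no sequence. The DNA next to the placeholder holds the outermost alpha satellite, other satellites and segmental duplications, and it merges into unique sequence farther along the arm. Short reads from repeats can match several places, and copies that the assembly lacks can only be placed on the copies it holds. No sequence of hg19 was used here, so no peak could be assigned to a satellite, a duplication or a gene, and no peak sequence is shown.

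Peaks were dense beside the gaps, and those peaks were wide. The windows on the 38 sides of the gaps span 76 Mb, with 13.8 members per Mb. The rest of the same 19 chromosomes, up to the last peak of each, had 2119 peaks, or 0.87 per Mb, a 15.8-fold difference. Bases without sequence are counted in both lengths. Over only the 31 sides that held a member, a choice that depends on the peaks themselves, the values were 16.9 per Mb and 19.4-fold. Members covered 3.41% of the windows and other peaks 0.099% of the rest of these chromosomes. When peaks at most 5 kb apart were joined, 273 regions remained near the gaps and the densities were 3.59 and 0.57 per Mb, a 6.29-fold difference. Members made up 2.59 Mb of the 6.91 Mb that all peaks covered, or 37.5%.

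Scores of members ranged from 50.01, the lowest in the whole list, to 3100, with a median of 120.2 and quartiles of 69.3 and 319. Over all 4201 peaks the median was 79.1, and over the 3154 peaks that were not members it was 69.4. A score is the authors' own value per peak, on a scale that the sources used here do not state, and it serves only to order peaks within this list. Of the members, 591 scored 100 or more (56.4%, 53.4 to 59.5%), against 39.7% of all peaks in the list. Among the peaks that were not members 1078 did so (34.2%, 32.5 to 35.9%), an interval that does not meet that of the members. The share was 26.7% (24.8 to 28.6%) for the 2119 of these on the same 19 chromosomes. For the 1035 on the chromosomes left out it was 49.5% (46.4 to 52.6%), closer to that of the members. At the weak end, 182 members (17.4%) scored under 60, against 37.3% of the other peaks.

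**Figure D1:**
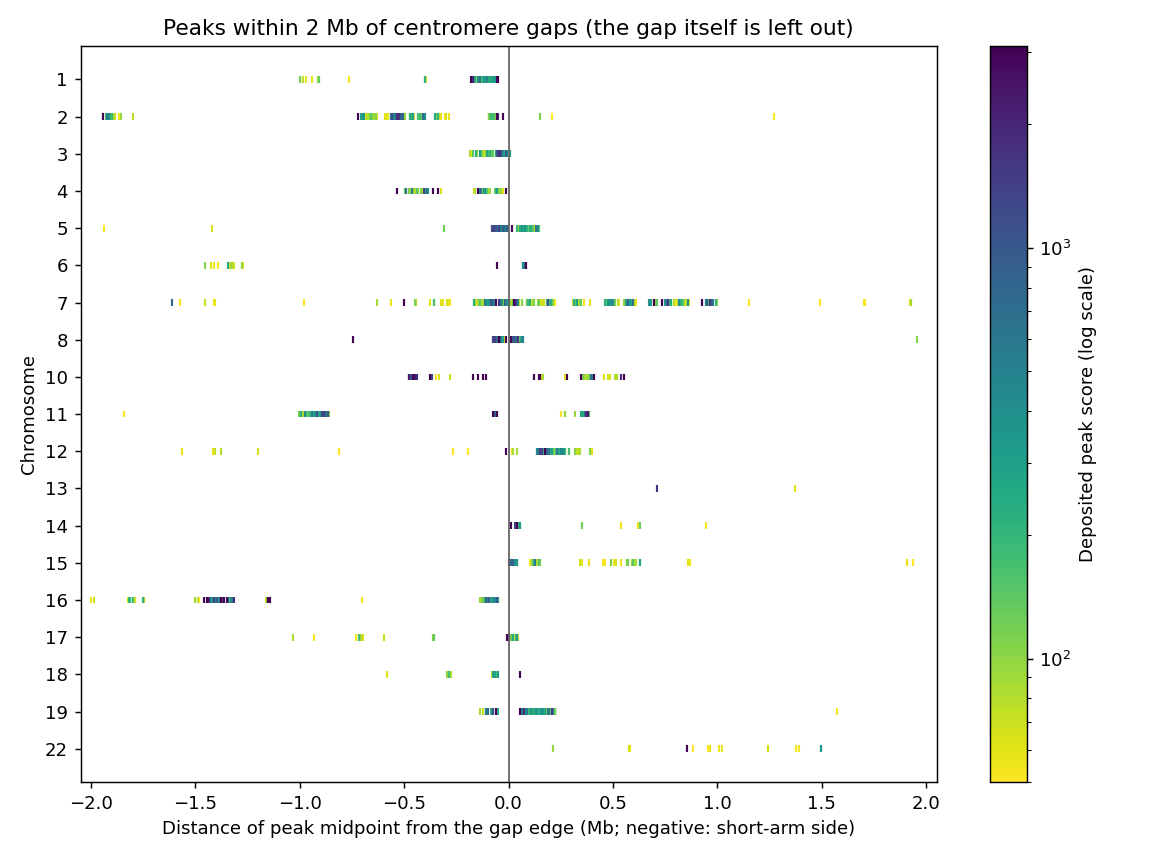
Position of each of the 1047 members by chromosome (rows) and by the distance of its midpoint from the gap edge in Mb (horizontal axis, short-arm side negative, long-arm side positive, the 3 Mb gap itself left out), coloured by the deposited score on a log scale. Most marks crowd towards the edge at 0, while chromosomes 2, 11 and 16 also carry dense runs farther out on the short-arm side.

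The short-arm side of the gaps held 587 members and the long-arm side 460 (43.9%, 40.9 to 47.0%). These counts come from 15 short-arm and 16 long-arm sides that held a member, and the reason for the split was not tested. Of the 38 sides, 7 were empty: the long-arm sides of chromosomes 1, 4 and 16 and the short-arm sides of chromosomes 13, 14, 15 and 22. By general knowledge of hg19, the assembly gives no sequence for the short-arm sides of those 4 acrocentric chromosomes, nor for the heterochromatin that follows the gaps of chromosomes 1 and 16 on the long arm. The first peak past the gap came at 18006 kb on chromosome 1 and at 8085 kb on chromosome 16. On chromosome 4 the long arm is sequenced up to the gap, by the same general knowledge, and yet the first peak there came 13137 kb out, while the short-arm side held 55 members. On the 12 chromosomes with members on both sides, the long-arm share was 49.5% (45.9 to 53.1%). Without chromosome 7 it was 41.4% (37.3 to 45.6%).

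The sides differed widely among themselves. A side with members held a median of 20, from 1 on the long arm of chromosome 18 to 152 on the long arm of chromosome 7. The 3 fullest sides, the long-arm side of chromosome 7, the short-arm side of chromosome 2 with 112 and that of chromosome 16 with 88, held 33.6% of all members. Chromosome 2 was the most lopsided of the chromosomes with 2 occupied sides, with 112 members on the short arm and 3 on the long arm. Those 3 scored 111.9, 51.03 and 51.0. Chromosome 3 had 35 members on the short arm and 4 on the long arm, and chromosome 12 the opposite, with 9 and 53. Short-arm members outnumbered long-arm members on 6 of these 12 chromosomes and were outnumbered on the other 6.

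**Figure D2:**
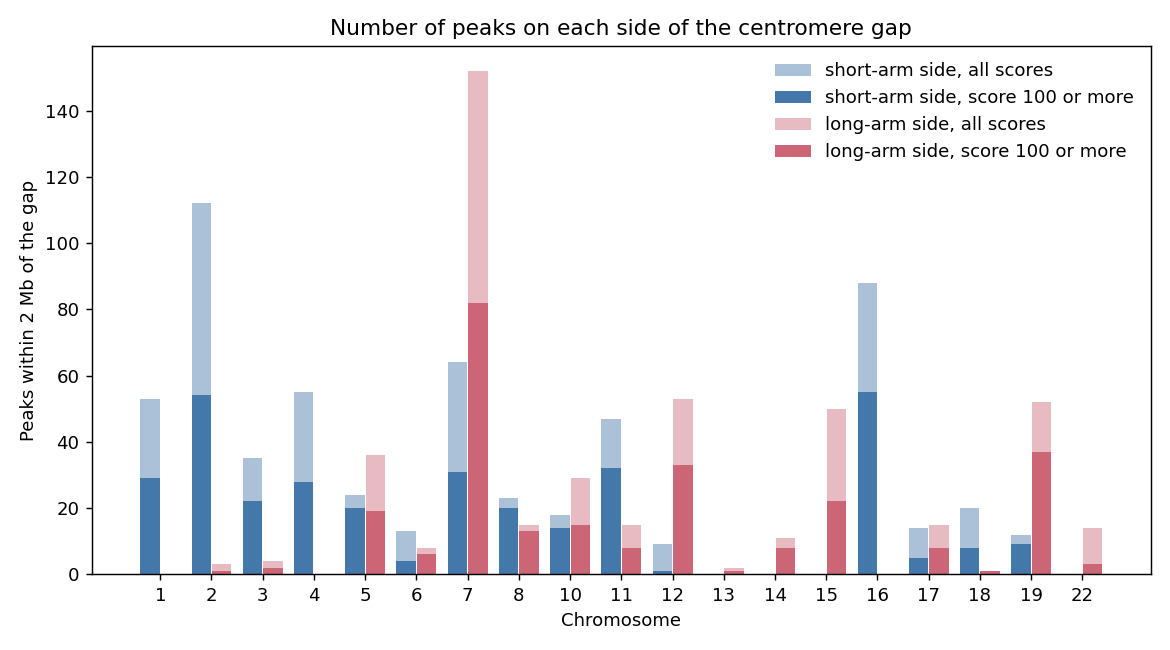
Number of members (vertical axis) on the short-arm side (blue) and long-arm side (red) of each chromosome's gap; the full bar counts all scores and the dark part counts scores of 100 or more. The long-arm side of chromosome 7 has the tallest bar, at 152, and the short-arm side of chromosome 2 follows at 112.

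The scores of the 2 sides lay close together. The median score was 123.9 on the short-arm side and 115.8 on the long-arm side, and 56.6% (52.4 to 60.6%) and 56.3% (51.6 to 60.9%) of their members scored 100 or more. The highest shares among sides of at least 10 members were on chromosome 8, where 20 of 23 short-arm members (87.0%, 66.4 to 97.2%) and 13 of 15 long-arm members (86.7%, 59.5 to 98.3%) scored 100 or more. The short-arm side of chromosome 5 followed with 20 of 24 (83.3%, 62.6 to 95.3%). At the low end, 1 of 9 members on the short arm of chromosome 12 (11.1%, 0.28 to 48.2%) and 3 of 14 on the long arm of chromosome 22 (21.4%, 4.66 to 50.8%) reached that score. That single peak on chromosome 12, from 34829966 to 34856099, scored 3100 and was 26134 bp wide.

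Members lay in tight runs. Neighbouring members on a side were separated by a median of 1117 bp (quartiles 278 and 4525 bp), and 47.5% of the 1016 spacings were under 1 kb. Chained over at most 100 kb, the members formed 85 runs, of which 29 held 10 or more members. These 29 runs contained 913 members (87.2%) in 5.78 Mb, and 17 of them held a peak at 3100. The remaining runs were small, and 27 members stood alone. The longest run, of 145 members, lay on the long arm of chromosome 7 from 61054332 to 62053450. It began 0.33 kb from the gap edge, and its peaks covered 30.4% of its span. The second, of 80 members, lay on the short arm of chromosome 2 from 91595109 to 92043086, 283 kb from the gap at its nearest midpoint.

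Runs differed in how much of their span was peak. The short-arm run of chromosome 2 that reaches the gap, from 92232036 to 92326305, held 18 members that covered 78.2% of it. On chromosome 8 the short-arm run from 43759824 to 43838914 held 22 members and was covered to 77.9%, and on chromosome 5 the short-arm run from 46321474 to 46405509 held 21 and was covered to 76.2%. The median of the 29 runs was 50.5%. The sparsest were a run of 12 members on the short arm of chromosome 6 from 57375086 to 57559588, at 6.06%, and a run of 14 on the short arm of chromosome 7 from 57422668 to 57773985, at 6.71%. Their median scores were 61.4 and 64.5, below the 79.1 of all peaks, and the chromosome 7 run nevertheless held a peak of 11550 bp at 3100. After joining over 5 kb the widest region was the short-arm run of chromosome 1 from 121351600 to 121485602. It spanned 134 kb with no break over 5 kb, and its 41 peaks covered 89.5 kb of that.

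Members thinned with distance from the gap, unevenly. Within 250 kb of the edge lay 520 members (49.7%, 46.6 to 52.7%), within 500 kb 705 (67.3%, 64.4 to 70.2%) and within 1 Mb 929 (88.7%). In steps of 250 kb the short-arm side held 272, 106, 58, 53, 7, 57, 6 and 28 members, and the long-arm side 248, 79, 60, 53, 4, 7, 3 and 6. The first 250 kb were occupied on 30 of the 31 sides, all but the long arm of chromosome 13. Farther out a few sides supplied most peaks. On the short arm, chromosome 2 gave 43 of the 58 members from 0.5 to 0.75 Mb, chromosome 11 gave 42 of the 53 from 0.75 to 1 Mb, and chromosome 16 gave 38 of the 57 from 1.25 to 1.5 Mb. On the long arm, chromosome 7 gave 46 of the 53 from 0.75 to 1 Mb. The median of the 31 sides was 20 members in the first Mb and 0 in the second.

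The 2 Mb limit did not coincide with an end of the dense regions on every side. On the same 31 sides, 118 peaks lay from 1 to 2 Mb and 157 from 2 to 3 Mb, on 15 and 9 sides. The counts then were 39, 48 and 82 in the next 3 steps of 1 Mb. The short arm of chromosome 16 supplied 57 of the 118 and 48 of the 157, and without it they were 61 and 109. The long arm of chromosome 22 supplied 40 of the 157 and, from 5 to 6 Mb, 51 of the 82. The member nearest the limit was a 566 bp peak on chromosome 16 from 33336655 to 33337220, 1999 kb from the gap, with a score of 50.9. The nearest peak outside was a 553 bp peak on chromosome 7 from 56046357 to 56046909, at 2007 kb, with a score of 52.1.

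**Figure D3:**
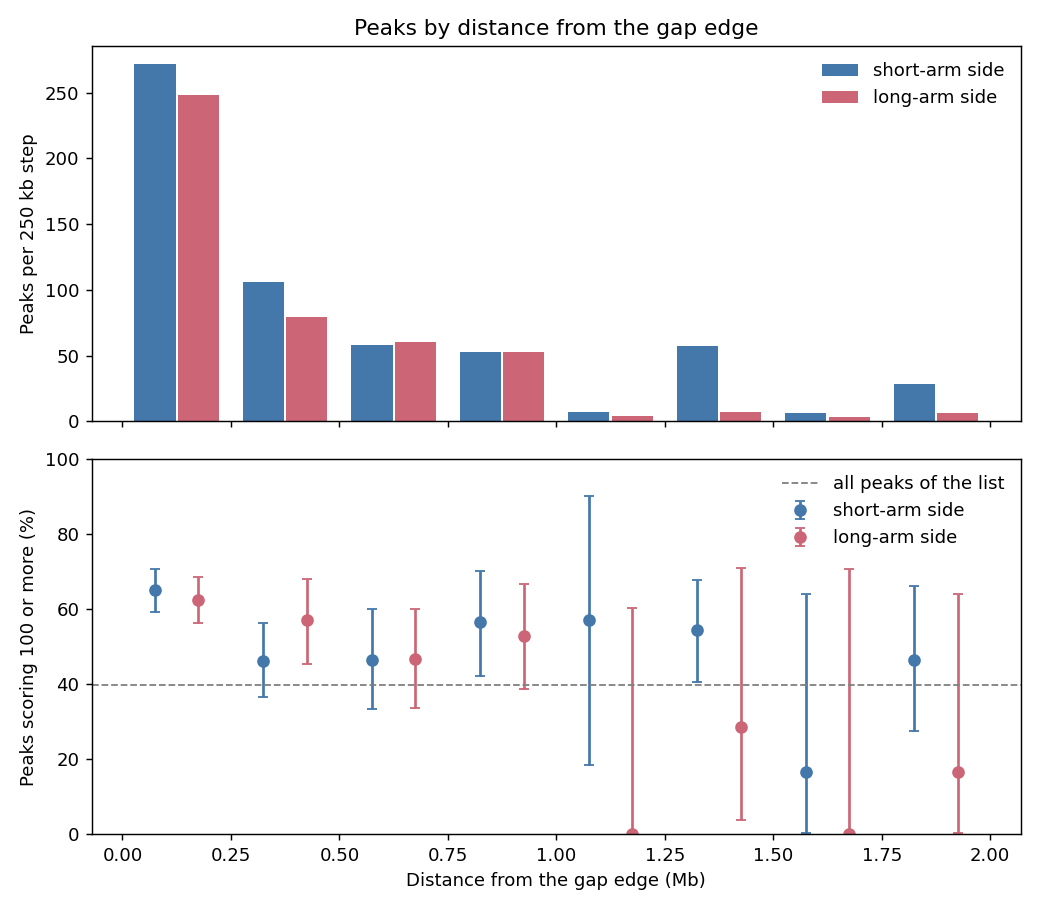
Upper panel, number of members per 250 kb of distance from the gap edge (Mb) on the short-arm side (blue) and long-arm side (red); lower panel, share of those members scoring 100 or more, in percent, with exact 95% intervals and a dashed line at 39.7%, the share in all peaks of the list. The counts fall from 272 and 248 in the first step to 106 and 79 in the second, and intervals beyond 1 Mb on the long-arm side rest on 3 to 7 peaks a step.

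Peaks close to the gap scored higher. Within 250 kb of the edge 332 of 520 members (63.8%, 59.6 to 68.0%) scored 100 or more, against 259 of 527 beyond it (49.1%, 44.8 to 53.5%), with medians of 157.2 and 99.4. The 250 kb limit was chosen after the data were seen. The shares within it were close on the short-arm side (65.1%, 59.1 to 70.7%) and the long-arm side (62.5%, 56.2 to 68.5%). With each side left out in turn, the difference between near and far members stayed from 12.8 to 18.5 percentage points. Of 23 sides with members in both zones, 16 had the higher median score in the near zone. Chromosome 7 showed the reverse on its long arm, with medians of 95.2 for 42 near and 126.5 for 110 far members, and so did the short arm of chromosome 16, with 156.0 for 30 and 193.3 for 58.

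From 1 to 2 Mb the sides parted in their counts, with 98 members on the short arm and 20 on the long arm. Of the 98, 49 scored 100 or more (95% interval 39.7 to 60.3%), against 3 of the 20 (3.21 to 37.9%). This difference rested on the short arms of chromosomes 16 and 2. Without chromosome 16 the short-arm share was 31.7% (18.1 to 48.1%) over 41 members, and without both it was 18.5% (6.30 to 38.1%) over 27.

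Many gaps were bordered directly by a peak. On 15 of the 31 sides the nearest peak began or ended within 1.07 kb of the gap edge, which the rule gives to the nearest kb. On 9 of these 15 sides the bordering peak scored 3100, as on the long arm of chromosome 14, from 19000012 to 19024540, and on both sides of chromosomes 8 and 17. On chromosome 17 these peaks ran from 22244120 to 22262967 and from 25263007 to 25268416, and on chromosome 8 from 43818026 to 43838914 and from 46838888 to 46857905. The bordering peak on the long arm of chromosome 15, from 20000002 to 20006409, scored 2222. Chromosome 3 was bordered by weak peaks on both sides, with scores of 88.7 and 81.5.

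On the sides without a bordering peak, 2 distances recurred. On 8 sides the nearest peak began or ended between 49.4 and 50.9 kb from the edge: the short-arm sides of chromosomes 1, 6, 11, 16, 18 and 19 and the long-arm sides of chromosomes 18 and 19. On both sides of chromosome 10 it did so at 100.05 and 99.94 kb. These 10 peaks scored from 220.9 to 3100, and 7 of them scored 3100. Unsequenced stretches other than the centromere gap were not located here, and their part in these distances was not tested. The 6 sides left had their nearest peak at 18.4 kb (long arm of chromosome 12), 66.8 kb (long arm of chromosome 6) or from 148.9 to 711 kb (long arms of chromosomes 2, 11, 13 and 22). In all, 16 of the 31 nearest peaks scored 3100 and 26 scored 100 or more. The shares at or above those scores were 2.45% and 39.7% of all peaks, and 5.16% and 56.4% of all members. Among the 27 sides with at least 5 members, the nearest peak had the highest score of its side, or was tied for it, on 17.

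The score of 3100 was shared by 54 members (5.16%, 3.90 to 6.68%), against 2.45% of all peaks at or above it. They were 52.4% (42.4 to 62.4%) of the 103 peaks in the list at or above 3100. Another 32 lay on the chromosomes left out, 3.09% (2.12 to 4.34%) of the 1035 peaks there. The remaining 17 were 0.80% (0.47 to 1.28%) of the 2119 other peaks on the 19 chromosomes. The 54 members at 3100 lay on 16 of the 19 chromosomes, 34 on short-arm and 20 on long-arm sides, and 31 of them within 250 kb of the edge. With a median width of 15188 bp they made up 920 kb, or 35.5% of the length of all members. Chromosome 10 held 13, with 6 on the short arm and 7 on the long arm, although it had only 47 members. Chromosome 16 held 6, and chromosomes 4 and 7 held 5 each. On chromosomes 3, 13 and 15 no member reached 3100.

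On the short arm of chromosome 10 a chain of 4 peaks at 3100, 12731, 36616, 8557 and 19919 bp wide, ran from 39076525 to 39154954 with only short breaks. The widest member of all was a 67011 bp peak on the short arm of chromosome 4, from 49092900 to 49159910, 534 kb from the gap. It was followed by a 52079 bp peak on chromosome 2 from 92274227 to 92326305, which reached the gap edge, and a 42521 bp peak on the long arm of chromosome 10 from 42354941 to 42397461. The narrowest at that score was the 1552 bp peak nearest the gap on chromosome 1, from 121484051 to 121485602. It directly followed a 5993 bp peak of the same score, from 121478057 to 121484049. The 6 members at 3100 on chromosome 16 all lay more than 1 Mb from the gap, between 33864511 and 34197182.

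A few strong peaks stood far from any other member, or had none on their side. The long arm of chromosome 18 had a single member, from 18510901 to 18520763, with a score of 3100. Chromosome 13 had 2 members, a 1500 bp peak from 19711351 to 19712850 with a score of 1715 and a 764 bp peak from 20370417 to 20371180 with a score of 60.6. On the short arm of chromosome 8 a 5238 bp peak at 3100, from 43092510 to 43097747, stood 662 kb from the next member. Among the 27 members with no other peak within 100 kb, 9 scored 100 or more (33.3%, 16.5 to 54.0%), against 39.7% of all peaks. At 3100 there were 5 (18.5%, 6.30 to 38.1%), against 2.45% of all peaks at or above it.

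On nearly every chromosome the peaks near the gap scored higher than the other peaks of the same chromosome. The median score was higher in members on 17 of 19 chromosomes, all but 18 and 22, and the share scoring 100 or more was higher on 18, all but 22. On 7 of the 17 chromosomes with at least 10 peaks in each set, the 95% intervals of the shares did not meet: chromosomes 2, 5, 7, 8, 15, 16 and 19. Chromosome 7 had the most peaks of these, with 113 of 216 members (52.3%, 45.4 to 59.1%) against 34 of 568 other peaks (5.99%, 4.18 to 8.26%). Its member share was below the 56.4% of all members. Its other peaks were weak, with a median score of 56.8, and at 3.74 per Mb the densest of the 19 chromosomes. On chromosome 5 the values were 39 of 60 against 10 of 100, and on chromosome 15 they were 22 of 50 against 1 of 31. On chromosomes 1 and 4 the intervals overlapped, with 54.7% (40.4 to 68.4%) against 39.8% (35.6 to 44.2%) and 50.9% (37.1 to 64.6%) against 45.1% (36.5 to 53.97%). Chromosome 22 went the other way, with 3 of 14 (21.4%) against 48 of 132 (36.4%, 28.2 to 45.2%), and these intervals also overlapped. All intervals by chromosome take peaks as independent, although 87.2% of all members lay in runs of 10 or more.

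**Figure D4:**
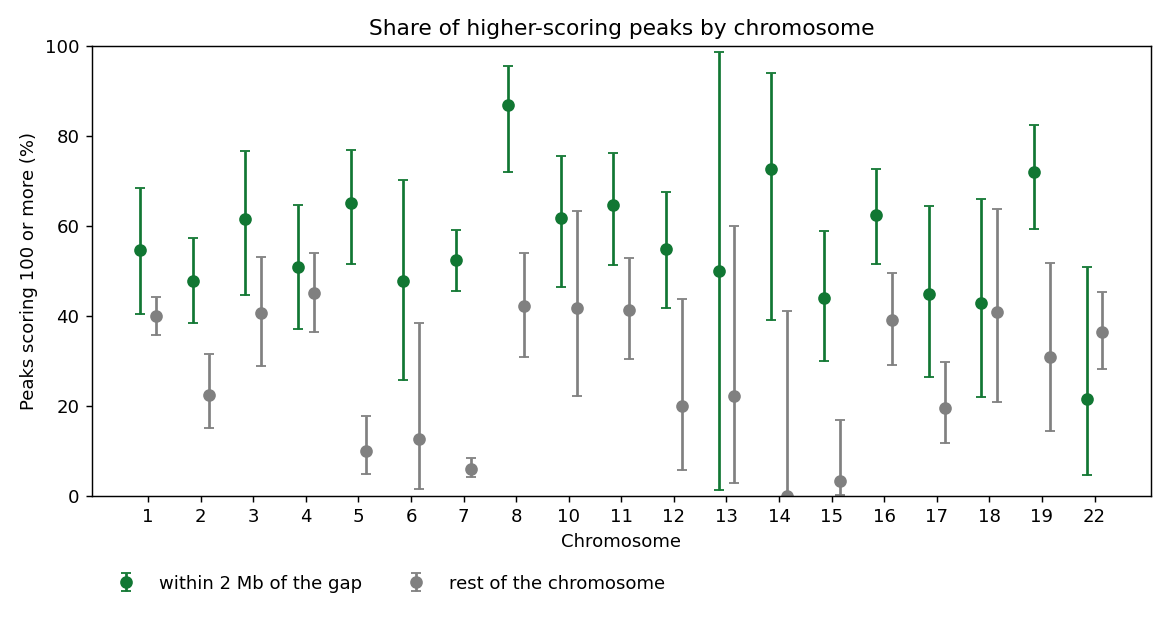
Share of peaks scoring 100 or more, in percent, for members (green) and for the other peaks of the same chromosome (grey), with exact 95% intervals. The green point is higher on every chromosome shown except 22, and the contrast on chromosome 7 is 52.3% against 5.99%.

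The proportion of a chromosome's peaks that lay beside its gap ran from 9.22% on chromosome 1 (53 of 575) and 9.59% on chromosome 22 (14 of 146) to 71.1% on chromosome 19 (64 of 90) and 75.6% on chromosome 12 (62 of 82), with a median of 43.7%. Chromosomes 10, 14 and 15 also had more than 60% of their peaks there. Chromosome 7 had the largest number, 216 of 784 (27.6%).

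The higher scores went with greater width. The median member was 1165 bp wide (quartiles 758 and 2249 bp), against 772 bp for the other peaks, and 41.2% of members were at least 1426 bp wide, against 19.6% of the others. In peaks of like width the shares of higher scores overlapped. From 839 to 1422 bp, 152 of 289 members (52.6%, 46.7 to 58.5%) and 408 of 761 other peaks (53.6%, 49.997 to 57.2%) scored 100 or more. From 643 to 838 bp the shares were 3.80% (1.54 to 7.68%) and 4.15% (2.92 to 5.70%). At 1426 bp or more every peak of the list scored at least 100, so the shares there cannot differ, and the median scores were 376 for 431 members and 380.1 for 618 other peaks. Near and far members also differed in width: 47.5% of those within 250 kb and 34.9% of those beyond were at least 1426 bp wide, while from 839 to 1422 bp 53.6% (45.4 to 61.7%) and 51.5% (42.8 to 60.1%) scored 100 or more.

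Narrow peaks with a high score were rare among members and among other peaks, by limits of width and score chosen after the data were seen. Of 441 members at most 1000 bp wide, 1 scored 200 or more (0.23%, 0.0057 to 1.26%), an 884 bp peak on chromosome 16 from 34001802 to 34002685 with a score of 227.9. Among 2106 other peaks of that width 21 did (0.997%, 0.62 to 1.52%), up to a score of 1033, and these intervals overlap. Across peaks, which are not independent replicates and share a library, the Spearman correlation of width with score was 0.95 over the 1047 members and 0.85 over the 3154 others.

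**Figure D5:**
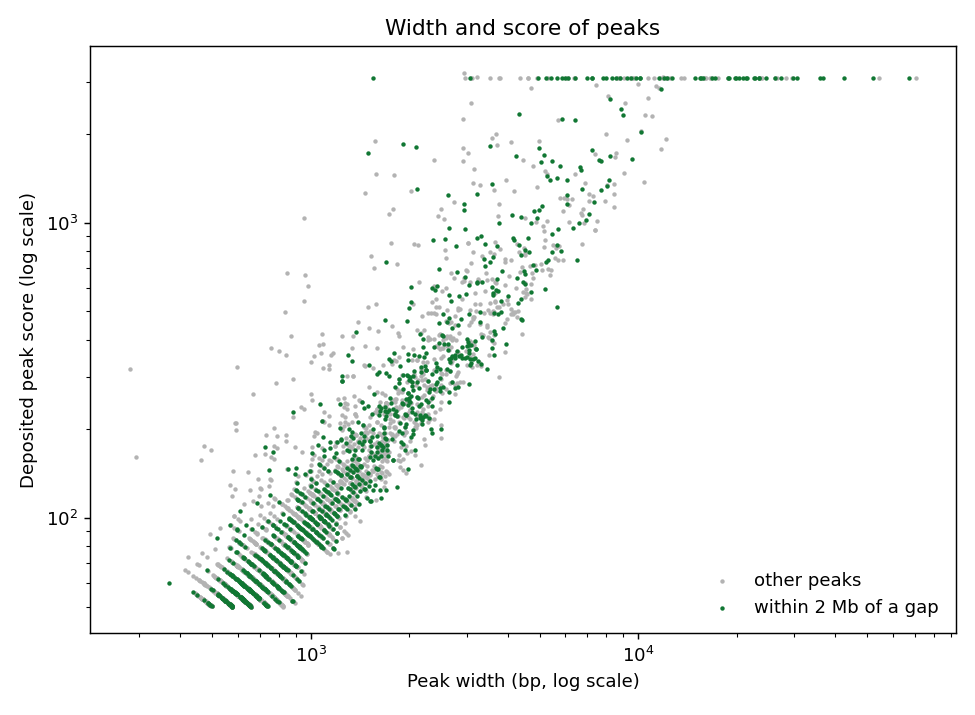
Width in bp (horizontal, log scale) and deposited score (vertical, log scale) of each member (green) and each other peak (grey). Members follow the same band as other peaks, with 41.2% of members and 19.6% of other peaks at 1426 bp or more, and the points in a row at the top are the peaks at 3100.

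Dense runs were not found only beside centromere gaps. Runs of 10 or more peaks held 87.2% of members and 52.2% of the other peaks. Within such runs 58.7% of members (55.4 to 61.9%) and 54.3% of other peaks (51.8 to 56.7%) scored 100 or more, intervals that overlap. Restricted to the same 19 chromosomes, the share in the other runs was 46.9% (43.7 to 50.2%), an interval that lies below that of the members. Outside runs of 10 or more peaks, and over all chromosomes again, the difference between the sets was wider. There 55 of 134 members (41.0%, 32.6 to 49.9%) scored 100 or more, against 184 of 1507 other peaks (12.2%, 10.6 to 13.97%). Only 27 of these 134 members stood alone, and the others lay in smaller runs.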

How the data were processed

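A single deposited file was used, the peak list of the SOX4 library, in hg19. Per the submitters' processing notes, Bowtie 0.12.7 and MACS were used. Not given in the sources used here are MACS version and settings, duplicate handling, and how the GFP library entered peak calling. The score in the deposited list is the authors' own value per peak, with no header and no stated scale. Positions are counted from 1. Members, score limits and run settings were chosen with earlier results of these data known. Gap edges were those of the rule, to the nearest kb. Runs chain peaks over at most 100 kb, and long runs have 10 or more peaks. Shares have exact Clopper-Pearson 95% intervals. Named regions were drawn from each side's highest-scoring, nearest and most tightly grouped peaks and the 10 top members, ties broken by width. Not all of these are named. Further regions were chosen after their values were seen. Motifs and genes were not analysed here, for lack of an hg19 sequence or annotation. The membership rule was tested on simulated data. Tools were SciPy 1.17.1, NumPy 2.4.6 and pandas 2.3.3 under Python 3.11.15, with figures by matplotlib 3.10.9.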

Additional observations from a re-analysis of the deposited data

How the results depend on the processing

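Alternatives were a window of 1 Mb, peaks at or above the median score or of 100 or more, joining over 5 kb, leaving out chromosome 7 (the fullest), membership by any overlap and, added after the data were seen, only the chromosomes with members on both sides. Membership by overlap left all 5 values as they were. The number of members, 1047, was 591 at a score of 100 or more and 273 after joining, both by construction. The share scoring 100 or more was 51.3% after joining, against 56.4%. A joined region took the highest score of its parts. No such share was obtained over all 2074 joined regions, so the 51.3% has no background to be read against. The long-arm share, 43.9%, was 47.4% with the 1 Mb window, 37.1% without chromosome 7 and 49.5% on the chromosomes with both sides. The share within 500 kb, 67.3%, was 75.9% with the 1 Mb window. That rise is by construction, since the same 705 members were divided by 929 instead of 1047. The share within 500 kb was 72.3% at or above the median score, 72.1% at 100 or more, 53.1% after joining and 70.4% without chromosome 7. Apart from the smaller window and the fewer peaks after each filter, the cause of these moves was not tested. The share of peaks at or above 3100 that were members stayed from 45.6 to 54.9%. No paired analysis was possible because the groups hold a single library apiece. The planned motif comparison was not run. With no depth in the file, a side without a peak has no detection limit.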
